A study of Homo sapiens with 12 samples.

Results

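Poly(A) polymerases and the related terminal nucleotidyltransferases, enzymes that add adenosines to the 3' ends of RNA, were described in prostate cancer cells given a mimic of the PIWI-interacting RNA piR-4447944. The 9 genes PAPOLA, PAPOLG, TENT2, TENT4A, TENT4B, TENT5A, TENT5B, TENT5C and MTPAP were taken by symbol from the 60660 genes of the tables. All 9 were listed for all 12 mRNA libraries, though not every gene had counts in each. The cells were LNCaP and 22Rv1, established human prostate carcinoma lines that both carry the androgen receptor. Each line was transfected with piR-4447944 mimic or with a negative control, NC-mimic, and both treatments were grown with 10% charcoal-stripped serum (CS-FBS), a serum poor in androgen, with 3 libraries in each of the 4 groups. The comparison asks which genes change with piR-4447944 when androgen is withdrawn. Each group is a single established line. The study describes its experiments in general as triplicates and as independent experiments, but the labels do not say whether the 3 libraries of a group came from separate cultures, so the p-values measure the spread between libraries, which may be in part technical.

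A poly(A) tail protects an mRNA and helps its translation. The canonical enzymes put it on in the nucleus after the transcript is cleaved, whereas the non-canonical TENT enzymes lengthen or modify tails later, many of them in the cytoplasm, and a separate enzyme serves the mitochondria. The TENT5 enzymes are used in a tissue-restricted manner and are known to lengthen the tails of mRNAs that encode secreted proteins.

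Totals ran from 12161091 to 22179601 expected counts per library, and all 8 luminal prostate markers, androgen receptor and KLK3 among them, exceeded 1 TPM (transcripts scaled to transcript length and library size) in every library. The summed level of the other marker lists was 0 to 1.05 TPM for basal epithelium, 1.39 to 9.45 for leukocytes, 4.86 to 43.5 for fibroblasts and 0 to 1.89 for endothelium, with KRT5 and PTPRC at 0 in all LNCaP libraries. The third 22Rv1 library of each treatment stood apart from its group. In 22Rv1 with piR-4447944 mimic, replicate 3 had 1.6% of its counts in mitochondrially encoded protein genes, against 4.07 to 4.79% in the other 5 libraries of this line, and a mean of 5.84 log2 CPM (read counts scaled to library size) over the 20 S phase genes against 7.0 to 7.47. Some of the results that touch these libraries are therefore also given without replicate 3 of 22Rv1. The other genes of the pathway were fitted only with it. In bulk RNA, fewer expressing cells and less RNA per cell cannot be told apart.

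PAPOLA, the main nuclear poly(A) polymerase, was the most abundant of the 9 in every library. Its level was 114 ± 12.8 TPM (SD, n = 3) in LNCaP with NC-mimic, 110 ± 8.37 in LNCaP with piR-4447944 mimic, 97.5 ± 14.9 in 22Rv1 with NC-mimic and 96.7 ± 6.14 in 22Rv1 with piR-4447944 mimic. It made up 43.7 to 61.3% of the summed TPM of the 9 genes. The gene occupies 96501433 to 96567116 of chromosome 14, plus strand, in hg38 with the GENCODE annotation, the build of all positions given here.

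Below PAPOLA the order by TPM differed between the lines. In LNCaP with NC-mimic, TENT2, the cytoplasmic enzyme that also adenylates microRNAs, had 23.8 ± 4.62 TPM, MTPAP 22.3 ± 3.98 and TENT4A 20.4 ± 2.03, and these neighbours overlapped. TENT4B at 8.79 ± 1.34 TPM and PAPOLG at 6.69 ± 2.28 followed and also overlapped each other. The TENT5 family came last, with TENT5C at 1.44 ± 0.248 TPM, TENT5B at 0.08 ± 0.0436 and TENT5A at 0.0633 ± 0.0153, the last pair overlapping. In 22Rv1 with NC-mimic, TENT5A moved to the second place at 33.2 ± 34.6 TPM, a mean set by 1 library and overlapping TENT4A (24.4 ± 2.33 TPM), which in turn overlapped TENT2 (22.9 ± 5.83 TPM). MTPAP at 11.6 ± 1.25 TPM was separate from both of its neighbours, PAPOLG (6.31 ± 1.15 TPM) overlapped TENT4B (4.78 ± 1.06 TPM), and TENT5B (2.42 ± 0.933 TPM) overlapped TENT5C (2.10 ± 0.738 TPM). With piR-4447944 mimic, TENT5B was the lowest of the 9 in either line, at 0 TPM in all LNCaP libraries and 0.887 ± 0.306 TPM in 22Rv1, where it overlapped TENT5C (1.57 ± 0.402 TPM).

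**Figure D1:**
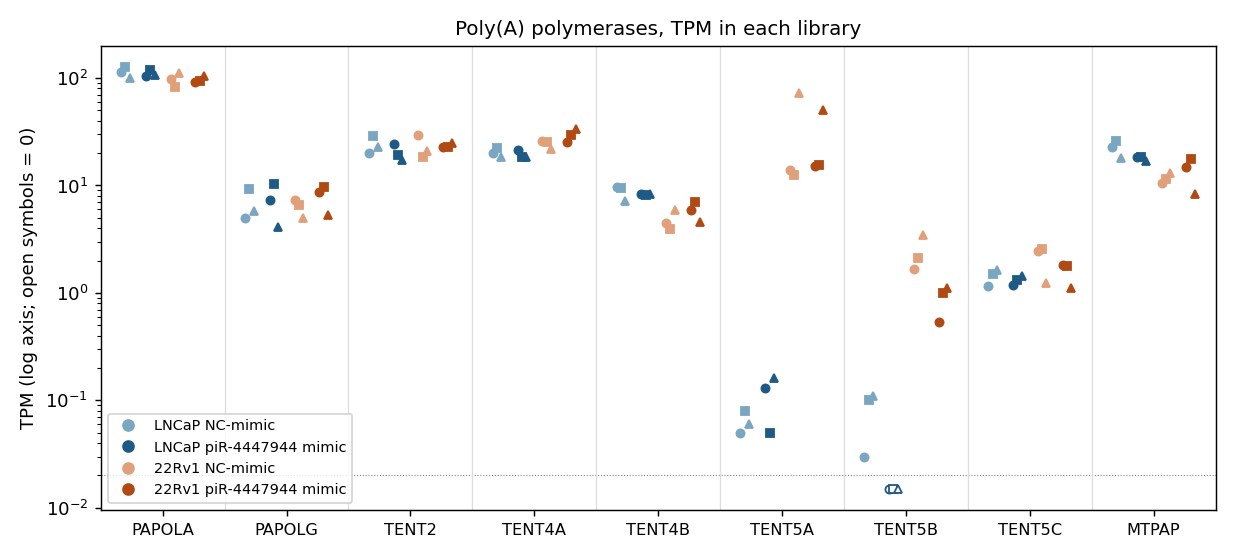
TPM of the 9 genes (log axis) in each library, with color for the group and symbol shape for the replicate (circle 1, square 2, triangle 3); open symbols stand for 0. PAPOLA sits near 100 TPM in all groups, whereas TENT5A and TENT5B are at 0.16 TPM or less in LNCaP and at 0.54 TPM or more in 22Rv1.

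TENT5B (ENSG00000158246.8) is a cytoplasmic member of the TENT5 family. The gene occupies 27005020 to 27012850 of chromosome 1, minus strand, and has 1 annotated transcript of 2382 bases. It is one of the genes that the study took up again after sequencing these same libraries, so the direction seen here is not independent evidence. In 22Rv1 it had 61, 56 and 73 expected counts with NC-mimic and 13, 29 and 28 with piR-4447944 mimic. As normalised counts these were 2.78, 3.62 and 5.95 CPM against 0.894, 1.62 and 1.81 CPM. All 3 libraries with piR-4447944 mimic lay below all 3 with NC-mimic, and replicate 3 was the highest within both groups.

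The log2 fold change of TENT5B in 22Rv1 was -1.51 ± 0.48 (SE), a 2.85-fold lower level, by the quasi-likelihood test of edgeR (unadjusted p = 0.0156, Benjamini-Hochberg adjusted p = 0.999). It thus met the study's rule, an unadjusted p under 0.05 with an absolute log2 fold change over 0.2, but not the adjusted threshold. The study set this rule on DESeq2's shrunken fold changes, whereas here it is applied to the fitted values of edgeR unless stated otherwise. In the form with DESeq2 TENT5B met it too, with a shrunken log2 fold change of -0.30. The p-values are those of DESeq2's Wald test on the value before shrinkage (unadjusted p = 0.00515, adjusted p = 0.999). Of the 16898 genes tested in 22Rv1, 0.681% met that rule in the lower direction and 1.48% in either direction (250 genes, and 420 with the replicate number as a block), and 4.72% had lower groups that did not overlap. No gene passed the adjusted threshold in 22Rv1, where 250 genes had an unadjusted p under 0.05 and DESeq2 gave 1 gene at an adjusted p under 0.05. The exact two-sided permutation test of the CPM values gave p = 0.1, the smallest that 3 against 3 allows. Summed over libraries, the ratio of piR-4447944 mimic to NC-mimic was 0.382 (95% counting interval 0.286 to 0.505, for counting error only). With replicates 1 and 2 alone the log2 fold change was -1.32 ± 0.53 (unadjusted p = 0.0284, adjusted p = 0.976, edgeR). Without replicate 3 of NC-mimic it was -1.15 ± 0.49 (unadjusted p = 0.0582, adjusted p = 0.970, edgeR) and no longer met the rule.

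LNCaP cells had almost no TENT5B. The 3 libraries with NC-mimic held 1, 3 and 3 expected counts and those with piR-4447944 mimic held 0, 0 and 0. The groups did not overlap, and the exact two-sided permutation test gave p = 0.1, the smallest possible. Of the 16244 genes tested in LNCaP, 3.74% had lower groups that did not overlap, a share that leaves out genes under the low-count filter, TENT5B among them. Set against a chosen floor of 3 counts over the libraries at 0, the level with NC-mimic was 2.04-fold higher. The 95% counting interval of the ratio began at 1.26, for counting error only. The gene was under the low-count filter here and was therefore not among the genes tested in LNCaP. Without that filter its log2 fold change in edgeR was -4.23 ± 2.15. This value met the study's rule but not the adjusted threshold (unadjusted p = 0.0487, adjusted p = 0.941, edgeR), and 1.4% of genes met the rule in the lower direction. With all 12 libraries in one fit it was -4.18 ± 1.18 and again met the rule only (unadjusted p = 0.0055, adjusted p = 1, edgeR), beside 0.347% of genes in the lower direction. These results rest on 7 counts in all. The rule on DESeq2's shrunken fold changes, the form the study used, was not tried for TENT5B in LNCaP.

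TENT5B separated the cell lines. With NC-mimic, 22Rv1 had 190 counts in sum against 7 in LNCaP, a log2 fold change of 4.92 ± 0.58 (adjusted p = 0.000194, edgeR) and a normalised ratio of 30.2 (95% counting interval 14.4 to 76.0). With piR-4447944 mimic, 22Rv1 had 70 counts in sum and was 23.5-fold higher, set against the same floor of 3 counts over the 3 LNCaP libraries that were at 0. The 95% counting interval of that ratio, which covers the error of the 70 counts as well, began at 18.6. Across both lines the effect of the mimic on TENT5B did not pass (unadjusted p = 0.0027, adjusted p = 0.999, edgeR). The test that it differed between the lines did not pass either (unadjusted p = 0.0461, adjusted p = 1, edgeR). Both of these rest in part on LNCaP libraries at 0, and the sign of the difference between lines changed with the fit. The log2 value was 2.68 in edgeR, -0.33 as DESeq2's shrunken estimate and -0.73 by limma on log2(TPM + 1). No gene passed the adjusted threshold in either of these tests, in which 340 (1.82%) and 610 (3.26%) of 18720 genes had an unadjusted p under 0.05, and DESeq2 called 0 and 3.

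**Figure D2:**
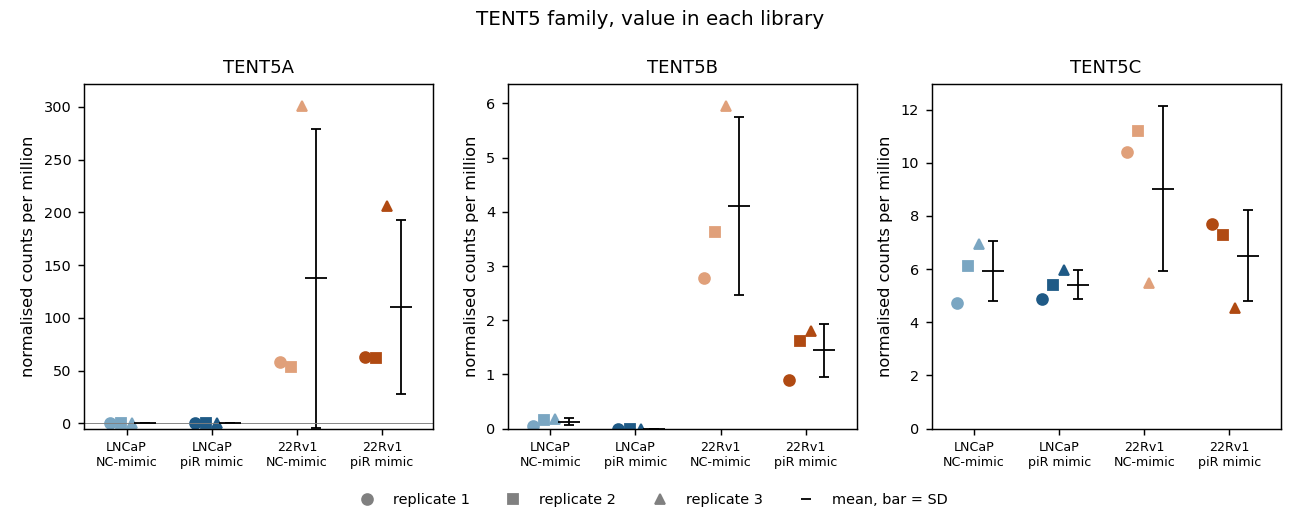
Normalised CPM of TENT5A, TENT5B and TENT5C in each library by group, with symbol shape for the replicate and the mean ± SD beside the points. TENT5B in 22Rv1 runs from 2.78 to 5.95 CPM with NC-mimic and from 0.894 to 1.81 with piR-4447944 mimic; TENT5A is high, and TENT5C low, in replicate 3 of both 22Rv1 groups.

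The genes whose log2 CPM most resembled that of TENT5B over the 6 22Rv1 libraries, among 15806 with a mean of at least 1 CPM, were AC092338.3 (Pearson r = 0.9882), PAX2 (0.9842), which encodes a paired-box transcription factor, and MRPS18B (0.9812), which encodes a mitochondrial ribosomal protein. These 6 libraries share 1 cell line and its treatment groups, and 27 genes (0.171%) had r of at least 0.95. With 6 libraries and 15806 genes, some high r values arise among unrelated genes. Whether 27 exceeds that number was not tested. PAX2 was itself low, at 0.688 to 2.53 CPM. MRPS18B ran from 77.0 to 96.4 CPM with NC-mimic and from 65.9 to 75.2 with piR-4447944 mimic, a far smaller range than that of TENT5B.

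TENT5A, known for lengthening the tails of collagen mRNAs in bone-forming cells, showed the widest difference between the lines. Its locus is 81491439 to 81752774 of chromosome 6, minus strand. LNCaP libraries held 4, 6 and 4 counts with NC-mimic and 8, 3 and 11 with piR-4447944 mimic. In 22Rv1 the values were 58.0, 53.4 and 301 CPM with NC-mimic and 62.8, 62.3 and 206 CPM with piR-4447944 mimic. Replicates 1 and 2 of 22Rv1 thus lay close together in both groups, and replicate 3 was 5.41 times their mean with NC-mimic and 3.29 times with piR-4447944 mimic. Only 0.438% of genes had a replicate 3 as far from the other replicates on the same side in both groups.

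The line difference of TENT5A was 9.03 ± 1.03 in log2 with NC-mimic (adjusted p = 0.000166, edgeR) and 7.90 ± 0.75 with piR-4447944 mimic (adjusted p = 0.000245). Without replicate 3 of 22Rv1 it was 7.73 ± 0.21 and 7.08 ± 0.22. The mimic effect in 22Rv1 was -0.33 ± 0.77 with all libraries (unadjusted p = 0.677, edgeR). With the replicate number as a block it was -0.08 ± 0.18 (unadjusted p = 0.677, edgeR). Without replicate 3 it was 0.17 ± 0.11 (unadjusted p = 0.123, edgeR), so its sign turned on the replicate 3 libraries. In both the mitochondrial share and the S phase level were lower than in replicates 1 and 2, slightly in NC-mimic (4.07% and 7.0 log2 CPM) and more with piR-4447944 mimic; their part in the TENT5A level was not tested.

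TENT5C, which acts as a tumor suppressor in multiple myeloma, had low levels in all groups. Its locus is 117606048 to 117628389 of chromosome 1, plus strand. In LNCaP it measured 4.72, 6.10 and 6.94 CPM with NC-mimic and 4.87, 5.41 and 5.98 CPM with piR-4447944 mimic. In 22Rv1 the values were 10.4, 11.2 and 5.46 CPM against 7.70, 7.30 and 4.53 CPM. Replicate 3 was here the lowest library of each 22Rv1 group, the opposite of TENT5A, and the groups overlapped in both lines. The mimic effect was -0.12 ± 0.20 in LNCaP and -0.48 ± 0.37 in 22Rv1 (unadjusted p = 0.547 and 0.236, edgeR). With replicates 1 and 2 of 22Rv1 alone it was -0.52 ± 0.23 (unadjusted p = 0.0412, adjusted p = 0.976, edgeR), which met the study's rule. The line difference with NC-mimic did not pass with all libraries (0.61 ± 0.32, adjusted p = 0.137) and passed without replicate 3 of 22Rv1 (0.86 ± 0.22, adjusted p = 0.00443, edgeR).

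None of the remaining 6 enzymes met either threshold with the mimic. In LNCaP, 7 of the 9 genes were tested and 0 met the study's rule, which 2.22% of 16244 genes met. No gene passed the adjusted threshold in LNCaP by edgeR, where 433 (2.67%) had an unadjusted p under 0.05 and DESeq2 called 2. The log2 fold changes of the 7 ran from -0.18 ± 0.13 for PAPOLG, a nuclear relative of PAPOLA, to 0.04 ± 0.12 for TENT4B, which adds mixed tails to nuclear and cytoplasmic RNA. TENT4A, its close relative, was the only tested member whose LNCaP groups did not overlap, at 55.7, 56.7 and 52.5 CPM with NC-mimic and 52.1, 50.1 and 51.9 CPM with piR-4447944 mimic. Its change was -0.10 ± 0.08 (unadjusted p = 0.209, edgeR), and 7.86% of genes had LNCaP groups that did not overlap.

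In 22Rv1 the same 6 ran from -0.07 ± 0.19 for MTPAP to 0.22 ± 0.17 for TENT4B, and all their groups overlapped. PAPOLA measured 224, 223 and 279 CPM with NC-mimic and 224, 232 and 241 CPM with piR-4447944 mimic (-0.06 ± 0.14). Without replicate 3 of 22Rv1 its value was 0.04 ± 0.07, and those of MTPAP and TENT4A were 0.02 ± 0.12 and -0.07 ± 0.11. PAPOLG and TENT2 were then at -0.03 ± 0.15 and -0.12 ± 0.14. TENT4B had the largest value, 0.33 ± 0.15 (unadjusted p = 0.0511, adjusted p = 0.976, edgeR). None of the 6 met the study's rule in these libraries. With all libraries the spread was wider in 22Rv1, where the common biological coefficient of variation over all genes was 0.343, than in LNCaP, where it was 0.0964. A p above the threshold therefore does not show that these enzymes were level. The wide spread lay in replicate 3. Pairs of 22Rv1 libraries within a group that included it differed by a chi-square per gene of 37.7 to 106. For replicates 1 and 2 this value was 8.4 (NC-mimic) or 7.23 (piR-4447944 mimic), inside the range of LNCaP pairs, 3.43 to 15.

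**Figure D3:**
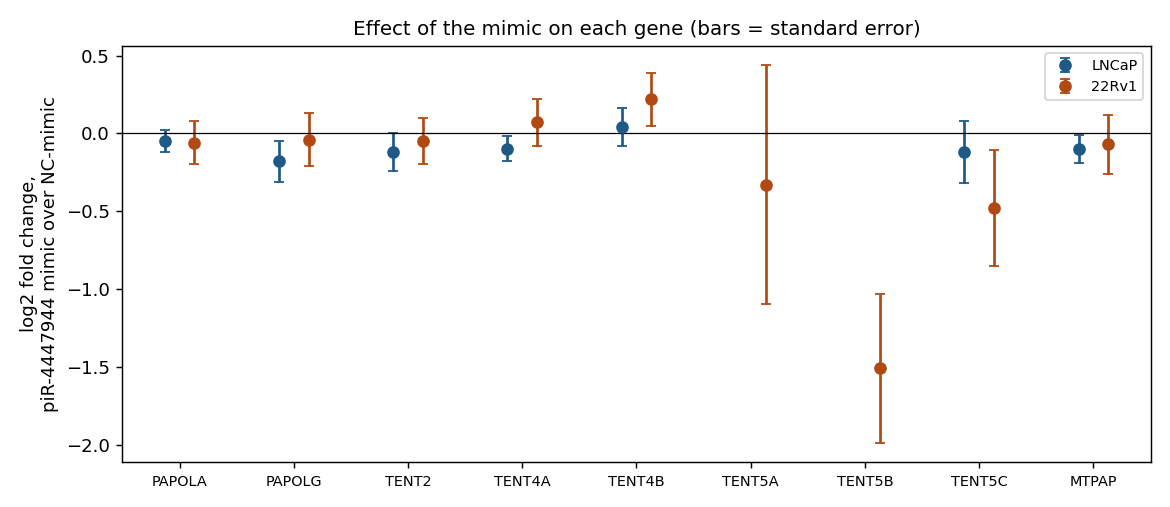
Log2 fold change (piR-4447944 mimic over NC-mimic) of each gene tested in LNCaP and in 22Rv1, with bars for the standard error. TENT5B in 22Rv1 is the lowest at -1.51; TENT5A has the widest bar, 0.77, and TENT5A and TENT5B have no LNCaP point because their counts were under the filter.

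Between the lines, 4 of the 9 genes were higher and 1 was lower in 22Rv1 at an adjusted p under 0.05, under NC-mimic and again under piR-4447944 mimic. With NC-mimic 30.9% of the 17497 genes tested were higher and 27.5% lower in 22Rv1, 58.4% in all. With piR-4447944 mimic 28.2% of 17283 were higher and 24.2% lower, 52.4% in all, so 5 of 9 is close to the share of all genes. The lines did not overlap in CPM for 5 of the 9 with NC-mimic and 6 of the 9 with piR-4447944 mimic, against 67.2% and 64.5% of all genes. Both comparisons used different libraries of the same 2 lines.

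TENT4A, on chromosome 5 from 6713432 to 6757044 (plus strand), was higher in 22Rv1, at 75.4 ± 4.36 CPM against 55.0 ± 2.17 CPM in LNCaP with NC-mimic and at 79.8 ± 13.7 against 51.4 ± 1.09 CPM with piR-4447944 mimic. Its log2 differences were 0.45 ± 0.10 (adjusted p = 0.00407) and 0.64 ± 0.14 (adjusted p = 0.00821) by edgeR. TENT4B, on chromosome 16 from 50152911 to 50235310 (plus strand), went the other way. It measured 35.5, 38.8 and 28.4 CPM in LNCaP and 24.1, 20.1 and 26.8 CPM in 22Rv1 with NC-mimic, a log2 difference of -0.54 ± 0.17 (adjusted p = 0.0217, edgeR). With piR-4447944 mimic the values were 38.0, 33.1 and 35 CPM against 26.8, 28.5 and 27.5 CPM, a difference of -0.35 ± 0.11 (adjusted p = 0.0366, edgeR). The TENT4B groups did not overlap in either treatment, but the adjusted p rose above 0.05 when LNCaP NC-mimic replicate 1 or 2 or 22Rv1 NC-mimic replicate 2 was left out (0.0696 to 0.0829), and with piR-4447944 mimic when any library but replicate 3 of 22Rv1 was left out (0.0710 to 0.138, edgeR).

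PAPOLG, on chromosome 2 from 60756253 to 60802086 (plus strand), was higher by count in 22Rv1. It measured 16.6, 16.1 and 12.8 CPM in LNCaP and 27.3, 23.1 and 21.9 CPM in 22Rv1 with NC-mimic, a log2 difference of 0.66 ± 0.16 (adjusted p = 0.00852, edgeR). With piR-4447944 mimic the difference was 0.82 ± 0.15 (adjusted p = 0.00377). In TPM the difference was not called by limma on log2(TPM + 1), at -0.05 ± 0.24 under NC-mimic and 0.14 ± 0.34 under piR-4447944 mimic (adjusted p = 0.884 and 0.762). TPM divides by the transcript length that RSEM estimates, and that of PAPOLG ran from 2081 to 4655 bases in LNCaP and from 3666 to 5652 in 22Rv1. TENT4A kept its direction in TPM but missed the threshold with NC-mimic (0.25 ± 0.14, adjusted p = 0.175, limma).

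TENT2, on chromosome 5 from 79612120 to 79688246 (plus strand), was not called between the lines, with a log2 difference of 0.23 ± 0.16 with NC-mimic (adjusted p = 0.266) and 0.31 ± 0.12 with piR-4447944 mimic (adjusted p = 0.0699, edgeR). With piR-4447944 mimic its groups did not overlap, at 39.5, 33.5 and 31.7 CPM in LNCaP and 41.6, 43.1 and 44.2 CPM in 22Rv1. Without replicate 3 of 22Rv1 it passed, at 0.29 ± 0.11 (adjusted p = 0.0360, edgeR). PAPOLA differed by -0.09 ± 0.12 and -0.08 ± 0.09 between the lines (adjusted p = 0.533 and 0.481).

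**Figure D4:**
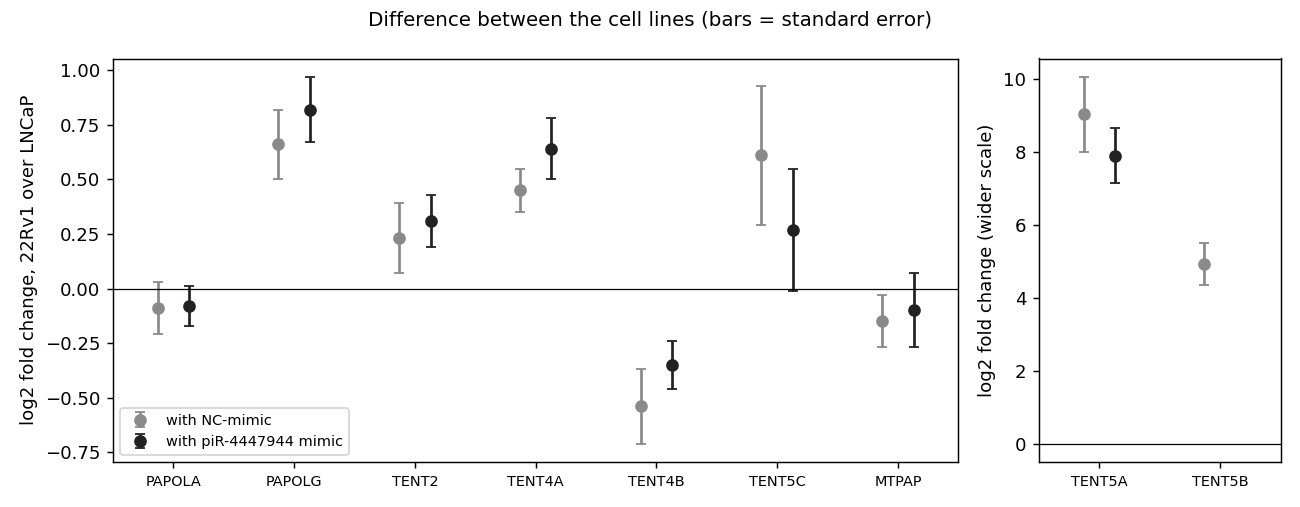
Log2 fold change (22Rv1 over LNCaP) of each gene under either treatment, with bars for the standard error; TENT5A and TENT5B are on a wider scale at the right. TENT5B with piR-4447944 mimic is not drawn because its LNCaP libraries were at 0; TENT4B is the called gene below 0, at -0.54 and -0.35.

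MTPAP, the mitochondrial poly(A) polymerase, which adenylates the mRNAs made from mitochondrial DNA, was called between the lines in estimated transcript length, in TPM with NC-mimic but not with piR-4447944 mimic, and in counts with neither. Its locus is 30309801 to 30374448 of chromosome 10, minus strand. With NC-mimic it measured 41.7, 46.7 and 39.8 CPM in LNCaP and 41.1, 39.8 and 35.4 CPM in 22Rv1, which overlapped, with a log2 difference of -0.15 ± 0.12 (adjusted p = 0.310, edgeR). In TPM the same libraries gave 22.9, 26.1 and 18.1 in LNCaP and 10.5, 11.4 and 13 in 22Rv1, which did not overlap, a difference of -0.87 ± 0.17 on the log2(TPM + 1) scale (adjusted p = 0.00547, limma). With piR-4447944 mimic the TPM values of 18.34, 18.31 and 16.77 in LNCaP and 14.82, 17.63 and 8.34 in 22Rv1 overlapped, a difference of -0.42 ± 0.27 (adjusted p = 0.240, limma). The estimated mean length of its transcripts was 2655 to 3447 bases over the 6 LNCaP libraries and 3525 to 5260 bases over the 6 22Rv1 libraries.

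The log2 ratio of MTPAP lengths, 22Rv1 over LNCaP, was 0.48 ± 0.12 (adjusted p = 0.0240, limma on log2 length, a test chosen after seeing the data), and 13.9% of the 10960 genes with a varying length and at least 1 TPM in every library passed. None of the other 5 genes tested passed, with PAPOLG at 0.60 ± 0.21 (adjusted p = 0.0943), and the TENT5 genes were not tested, TENT5A because it was under 1 TPM in LNCaP and TENT5B and TENT5C because they have a single transcript. The 5 MTPAP transcripts in the tables run from 695 to 5560 bases. Their exons share 1626 bases with the pseudogene GOLGA2P6 on the same strand and 1120 bases with a long non-coding RNA on the opposite strand, and no source used here states whether the counting used strand. With the mimic, MTPAP length changed by 0.01 ± 0.12 and its counts by -0.10 ± 0.09 in LNCaP and -0.07 ± 0.19 in 22Rv1. In 22Rv1 with piR-4447944 mimic its level was lowest in replicate 3 (29.1 CPM against 37.7 and 44.1), the library with the low mitochondrial share. In that library 45.5% of the genes tested in 22Rv1 lay at least as far from replicates 1 and 2. A link of MTPAP to the mitochondrial share was not tested.

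**Figure D5:**
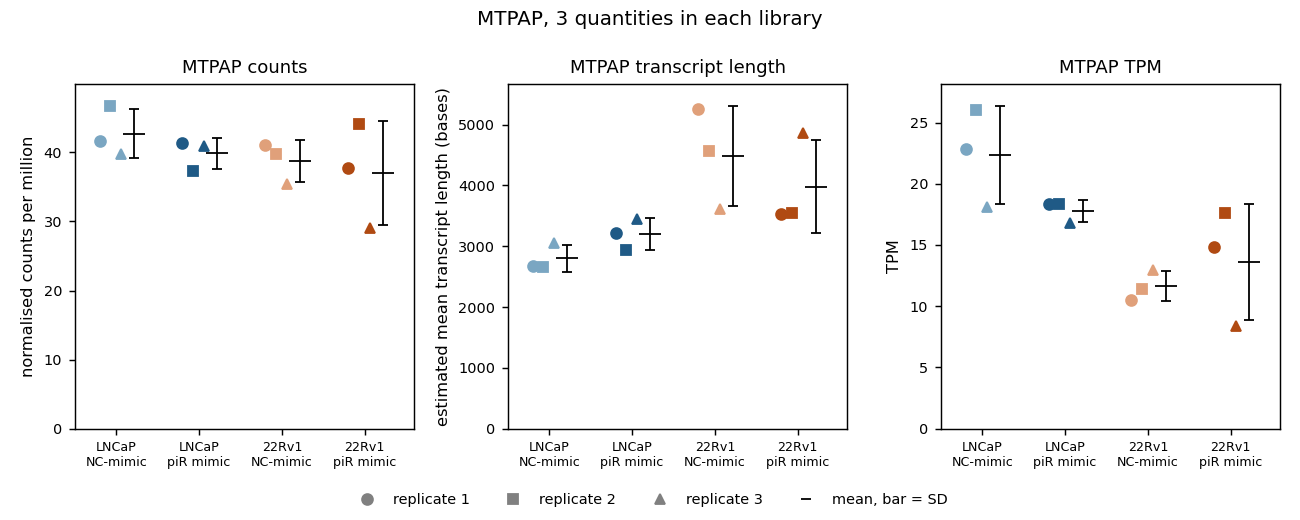
MTPAP in each library as normalised CPM, as estimated mean transcript length in bases and as TPM, with symbol shape for the replicate and the mean ± SD beside the points. The CPM of the 4 groups overlap, whereas the lengths are 2655 to 3447 bases in LNCaP and 3525 to 5260 in 22Rv1.

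Other genes of the pathway were called between the lines, and none of them with the mimic. Of the 4 tested genes among the other nucleotidyltransferases, 19 cleavage and polyadenylation factors, 12 poly(A)-binding proteins and partners, 20 deadenylases and 11 partners of the non-canonical enzymes, 0 met the study's rule or the adjusted threshold with the mimic in either line, beside the 2.22% and 1.48% of all genes that met the rule. Their median log2 fold changes lay between -0.02 and 0.02 in LNCaP and between -0.04 and 0.02 in 22Rv1, beside 0 and -0.01 for all genes.

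Between the lines, 3 of the 4 other nucleotidyltransferases were lower in 22Rv1 with NC-mimic and 0 were higher, beside 27.5% of all genes lower and 30.9% higher. They were TUT7, a terminal uridylyltransferase (-1.41 ± 0.13), TRNT1, which adds the CCA end of transfer RNAs (-1.0 ± 0.11), and TUT1, which uridylates U6 RNA (-0.61 ± 0.12). Of the 19 cleavage factors 5 were higher and 4 lower, led by CPSF4, a subunit of the cleavage and polyadenylation specificity factor (1.98 ± 0.19), and the scaffold protein SYMPK (0.88 ± 0.10), with CPSF2 lower (-0.56 ± 0.10). Of the 12 poly(A)-binding proteins and partners 2 were higher and 6 lower, among them PABPC5 (-2.25 ± 0.42) and the main cytoplasmic poly(A)-binding protein PABPC1 (-1.03 ± 0.08), whereas PAIP2B was higher (0.87 ± 0.14). Median differences of these lists were -0.80, 0.10 and -0.22 against 0.01 for all genes.

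Among the deadenylases, which shorten the tails, 9 of 20 were higher and 4 lower in 22Rv1 with NC-mimic, beside the same 30.9% and 27.5% of all genes. The median difference of this list was 0.28 against 0.01 for all genes. PAN2, the catalytic subunit of the PAN2-PAN3 complex (1.19 ± 0.09), and ANGEL2 (1.03 ± 0.12) were higher and ANGEL1 (-1.13 ± 0.10) was lower. Of the 11 partners of the non-canonical enzymes, 2 were higher and 3 lower, with a median of 0.06. CPEB4, which binds mRNAs whose tails are regulated in the cytoplasm, was lower (-2.06 ± 0.23), whereas ZFC3H1 (0.59 ± 0.13) and PNPT1 (0.53 ± 0.11) were higher. All genes named here and in the preceding paragraph had an adjusted p under 0.05 by edgeR. With piR-4447944 mimic the counts were 0 higher and 3 lower, 5 and 3, 2 and 6, 9 and 4, and 2 and 2 in the same order of lists, beside 28.2% of all genes higher and 24.2% lower, and PAN3 (1.02 ± 0.13) and SLIRP (-0.78 ± 0.16), a mitochondrial RNA-binding protein, took the places of ANGEL1 and PNPT1 among the leading genes.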

How the data were processed

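Total RNA of LNCaP and 22Rv1 cells was used for mRNA sequencing, 3 libraries in each of 4 groups. Per the labels and methods, the authors aligned reads to hg38 with STAR 2.7.1a and deposited RSEM 1.3.0 expected counts, TPM and mean transcript lengths per gene, without pooling. The annotation release, trimming and strand setting are not given in the sources used here. The deposited TPM table matched the TPM of the library files. The authors' own test was DESeq2 1.34.0 in R 4.1.1.

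Expected counts were rounded and tested here with edgeR 4.0.16 (quasi-likelihood, TMM, filterByExpr) in R 4.3.3, per cell line for the mimic and per treatment for the lines, with Benjamini-Hochberg adjustment over all genes tested. CPM values use TMM factors of all 12 libraries. Levels are compared between genes only in TPM. Alternatives used DESeq2 1.42.0 and limma 3.58.1 (TPM of at least 1 in 3 libraries, pseudocounts 1 and 0.1). The tests of the mimic in each line and of the lines with NC-mimic were tried on simulated data. The planted changes were larger than the main-fit mimic effects on the 9 genes in either line, and no replicate was set apart. The simulation therefore does not show that effects of the size seen here would be found. Depth was 12161091 to 22179601 expected counts, and intervals cover counting error only. Gene locations are from GENCODE on hg38, in which 7 of the 9 identifiers had the version in the files.

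The 9 genes and the other lists were chosen with earlier results of these data known. All 9 are described in each comparison. From the other lists the text names the genes with an adjusted p under 0.05 for the mimic, or for the lines the 3 with the largest absolute change among those passing, and the 3 genes most correlated with TENT5B in 22Rv1. The exact two-sided permutation tests used CPM.

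The labels give every group the numbers 1 to 3. Over all genes, same-numbered 22Rv1 libraries of both treatments deviated together (correlations 0.281, 0.229 and 0.422). The numbers were taken to pair them, an assumption that neither the labels nor these values establish. The main fits do not use the pairing, which enters only the fits with a replicate block. Libraries with different numbers were not compared. With replicate 3 apart in both groups, deviations from the group means can go together without pairing. The correlations of LNCaP did not all exceed 0.1 (0.0351, 0.00342 and 0.246), nor did those between lines.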

Additional observations from a re-analysis of the deposited data

How the results depend on the processing

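Over all alternatives, 444 of 517 recomputed log2 fold changes of the 9 genes kept their direction and their side of the threshold (the study's rule for the mimic, the adjusted p for the lines), 30 lost the call, 8 gained one and 35 changed sign. The count of the 9 genes called with the mimic at an adjusted p under 0.05 was 0 under every alternative run. TENT5B in 22Rv1 ranged from -1.74 to -1.15 when 1 library was left out, and lost the call without NC-mimic replicate 3. With the replicate block TENT5B was -1.50 (unadjusted p = 0.00976, adjusted p = 0.869, edgeR), and the assumed pairing changed no call of a member in 22Rv1. Where numbers were not taken to pair libraries, the block moved the LNCaP rule count to 508, ended the TENT4B line call with piR-4447944 mimic (-0.35, adjusted p = 0.0909, edgeR) and the unadjusted call of the TENT5B difference between lines (2.72, unadjusted p = 0.0637, adjusted p = 0.886, edgeR). Replicates 1 and 2 of 22Rv1 alone and the length test were chosen after seeing the data.

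Members that met the study's rule went from 0 to 1 in LNCaP with no low-count filter and with all 12 libraries in one fit (TENT5B, as the libraries at 0 were then tested), from 0 to between 0 and 1 with 1 library left out (PAPOLG at -0.28 without NC-mimic replicate 3), and in 22Rv1 from 1 to 2 with replicates 1 and 2 alone (TENT5C added) and to between 0 and 1 with 1 library left out. Members called between the lines, 5 in each treatment, became 3 in each with at least 10 counts in every library, which removed TENT5A and TENT5B from the test, 2 by limma on TPM with piR-4447944 mimic at either pseudocount, and 4 to 6 with 1 library left out. Without 22Rv1 replicate 3, 6 were called in each treatment. No rank of the 9 genes within a group changed when CPM per kilobase replaced TPM. Both measures rest on the same counts and the same estimated lengths. The order could therefore hardly change, and the length estimates were not tested by it. The TENT5B difference in LNCaP was -0.168 to -0.103 CPM with 1 library left out.

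All-gene counts at an adjusted p under 0.05, 0 in edgeR for the mimic, were in LNCaP 46 with no filter, 2 in DESeq2, 4 and 5 by limma at pseudocounts 1 and 0.1, and 0 to 2 with 1 library left out. In 22Rv1 they were 1 in DESeq2, 4 and 10 by limma and 4 with replicates 1 and 2 alone. For the difference between lines they were 3 in DESeq2, 3 and 5 by limma, and 0 to 1 with 1 library left out. Between lines they were 10226 (8453 to 12117) with NC-mimic and 9064 (6888 to 12494) with piR-4447944 mimic. Counts by the study's rule were 361 in LNCaP against 891 with no filter, 3 in DESeq2, 656 and 639 by limma, 168 with all 12 libraries and 284 to 1008 with 1 library left out. In 22Rv1 they were 250 against 532 with no filter, 541 and 529 by limma, 420 with the replicate block, 1232 with all 12 libraries, 781 with replicates 1 and 2 alone and 183 to 376. Over both lines they were 289 against 770 with no filter, 33 in DESeq2, 655 and 640 by limma, and for the difference between lines 610 against 1035 with no filter, 338 with at least 10 counts, 1182 with 22Rv1 replicates 1 and 2 alone and 407 to 1041.

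Signs that changed belonged mostly to values near 0. By limma on TPM, at pseudocounts 1 and 0.1, TENT4B was -0.07 and -0.07 and PAPOLG 0.07 and 0.07 in LNCaP, TENT2 0.07 and 0.07, PAPOLG 0.26 and 0.29 and MTPAP 0.15 and 0.16 in 22Rv1, and TENT2 -0.07 and -0.07 and PAPOLG -0.05 and -0.05 between lines with NC-mimic. With 22Rv1 replicates 1 and 2 alone, TENT4A was -0.07, TENT5A 0.17, PAPOLA 0.04 and MTPAP 0.02 for the mimic, and MTPAP 0.04 between lines with piR-4447944 mimic. The TENT5B difference between lines was -0.33 in DESeq2 and -0.73 and -0.53 by limma. The causes were not tested. With 1 library left out, the ranges that crossed 0 were -0.22 to 0.02 for TENT2, -0.10 to 0.02 for PAPOLA, -0.07 to 0.14 for TENT4B and -0.27 to 0 for TENT5C in LNCaP, -0.13 to 0.09 for TENT2, -0.03 to 0.19 for TENT4A, -1.13 to 0.97 for TENT5A, -0.12 to 0.05 for PAPOLA, -0.11 to 0.06 for PAPOLG and -0.22 to 0.08 for MTPAP in 22Rv1, and -0.24 to 0.04 for MTPAP between lines with piR-4447944 mimic. The low counts of TENT5A and TENT5B in LNCaP limit what can be said of them there.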
